A study of Mus musculus with 6 samples.

Results

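The germline and piRNA pathway genes are 32 named genes, out of 55487 in the count table, that act in germ cells: proteins of the piRNA pathway, meiotic chromosome proteins, germ cell regulators and a few other testis genes. They were taken by name, with earlier results of these data known, and each of the 32 symbols matched 1 Ensembl gene. RNA was sequenced from muscle stem cells, the precursors that rebuild muscle fibres. The mice were 10 weeks old, and in both groups the muscle had been injured with CTX (cardiotoxin) 60 h earlier. The 3 Setdb1 knockout (KO) libraries came from mice of genotype KO given tamoxifen, a drug used to switch on inducible recombinases, and the 3 control libraries from mice of genotype WT given oil. Drug and genotype changed together and cannot be told apart, and the labels name neither the recombinase nor the cells in which it was active.

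piRNAs are small RNAs, bound by PIWI proteins, that silence transposons in germ cells. Their protein partners, and the proteins that pair and recombine chromosomes in meiosis, are made in germ cells and are normally silent in body tissues. In mouse embryonic stem cells such genes are known to be held silent by DNA methylation, by the repressor complex PRC1.6, which contains E2F6, MGA and MAX, and by SETDB1, the enzyme that methylates lysine 9 of histone H3.

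In KO cells 2 of the 32 genes rose, Tcfl5 and Tdrd9, and the other 30 had at most 13 counts in any library. In bulk samples such as these, more cells that express a gene and more RNA per cell cannot be told apart. Of all 11224 genes that passed the low-count filter of edgeR, 2.22% were called higher in KO cells (quasi-likelihood test, Benjamini-Hochberg adjusted p below 0.05) and 0.615% lower, 2.83% in all. The other 30 members did not pass that filter. Tcfl5 and Tdrd9 passed it through their KO counts alone, so that both tested members were higher is fixed in part by the filter. No member was called lower, but the filtered fit could hardly have called a fall. Tcfl5 and Tdrd9 had only 10 and 3 counts over the control group, and the other 30 were not tested there. A fit to every gene with at least 1 count (25 members among 34908 genes, of which 1.07% were called higher and 0.395% lower, 1.46% in all) called the same 2 members. DESeq2 also called both, where it called 1.01% of 14591 genes higher.

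**Figure D1:**
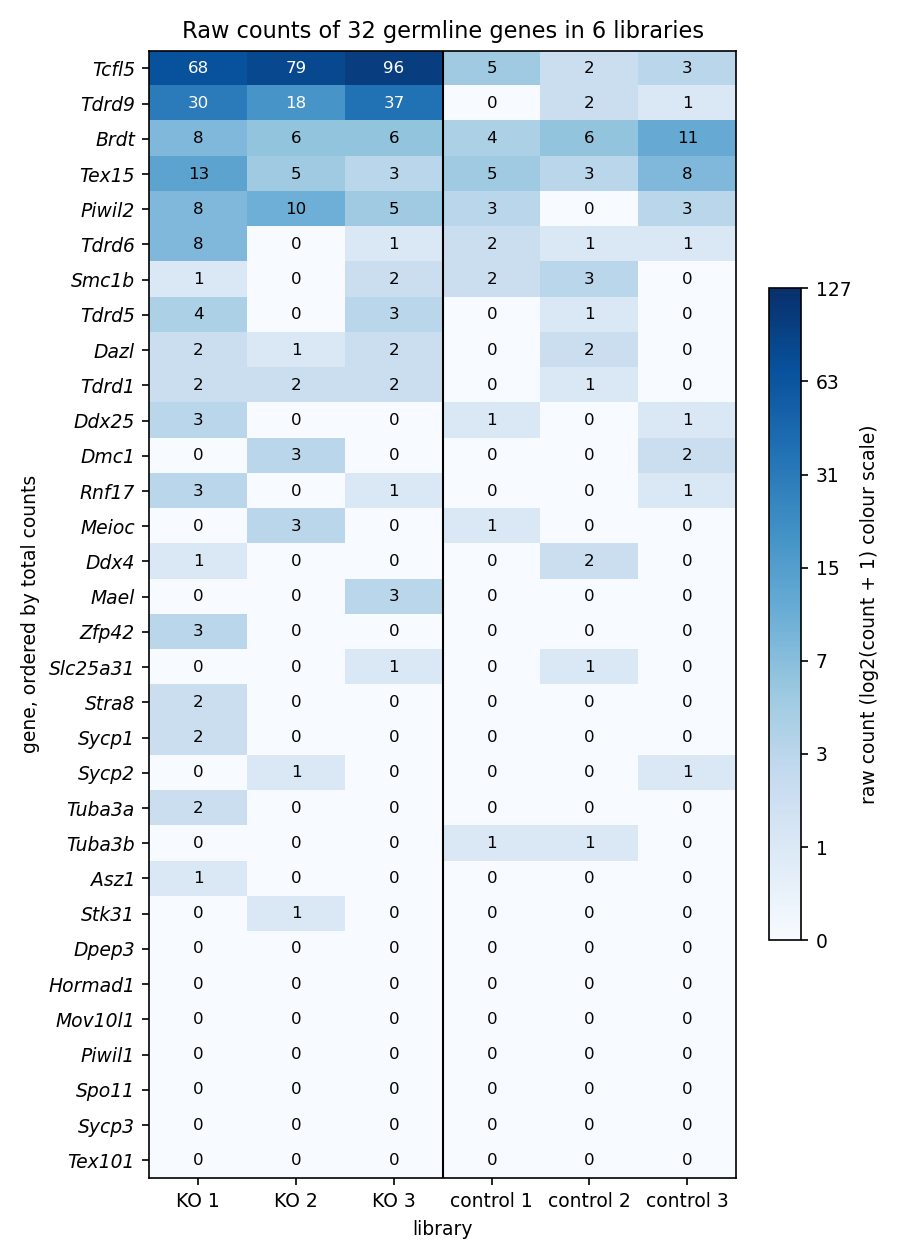
Raw counts of the 32 genes (rows, by total) in the 3 KO and 3 control libraries (columns); the colour follows log2(count + 1) and the number is the count. Tcfl5 and Tdrd9 have 18 to 96 counts in each KO library and 0 to 5 in each control library, and no other gene passes 13 counts.

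The libraries held 4052569 to 5178823 counts in the KO group and 4568845 to 5690844 in the control group. Protein-coding genes held 2002124 counts in KO library 1 and 2639292 to 3050460 in each of the others. A single rRNA gene held 38.4% of all counts in KO library 1 and 28.6% to 32.2% in the others. Setdb1 itself was at 16.5, 12.7 and 14.7 CPM (counts scaled to the TMM-normalised size of the library) in KO and at 34.9, 40.5 and 32.1 CPM in control libraries. All 12 muscle stem cell markers on the list passed the filter, 1 was called higher and none lower (median log2 fold change 0.01). The called marker was Myod1, a transcription factor of the muscle lineage, at 292 ± 63.4 CPM in KO and 142 ± 5.5 CPM in control cells (SD, n = 3 each, edgeR adjusted p = 7.791e-04), while Pax7 was at 26.9 ± 6.56 CPM in KO and 26.9 ± 5.70 CPM in control cells. KO library 1 stood apart: 7369 genes had counts in it and in no other library, against 470 to 641 such genes for each of the others. Summed neutrophil markers ran from 2.66 to 701 CPM in KO and from 0.801 to 1981 CPM in control libraries, highest in control library 3. Summed fibro-adipogenic markers were 1183, 1206 and 1748 CPM in KO libraries and 1328, 570 and 948 CPM in control libraries, lowest in control library 2. Their 6 tested genes all had positive log2 fold changes (median 0.54) and 0 were called in the filtered fit (1 at an unadjusted p under 0.05; 0 with DESeq2 and limma-voom), while the fit to every gene with a count called 1, Col3a1 (edgeR adjusted p = 0.0114). The part of these cells in the results below was not tested.

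Among the germ cell regulators, Tcfl5 encodes a basic helix-loop-helix transcription factor of testis germ cells. The gene (ENSMUSG00000038932) lies on chromosome 2, 180621956 to 180642708, minus strand, GRCm38. It had 68, 79 and 96 counts in KO libraries 1, 2 and 3, against 5, 2 and 3 in control libraries 1, 2 and 3. Every KO library was above every control library. Its level was 17.7 ± 1.32 CPM in KO and 0.658 ± 0.305 CPM in control cells (SD, n = 3 each). The log2 fold change was 4.69 (SE 0.31, edgeR adjusted p = 4.667e-07). Per kb of exon, Tcfl5 reached a level of 5.59 CPM in KO cells, above 59.5% of tested genes, while Pax7 was at 4.59 CPM per kb there. In control cells its level was 0.208 CPM per kb, above 0.7% of tested genes.

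Tdrd9, which encodes a tudor domain helicase that acts in the piRNA pathway of male germ cells, was the other gene that rose. It (ENSMUSG00000054003) lies on chromosome 12, 111971559 to 112068854, plus strand. It had 30, 18 and 37 counts in KO libraries and 0, 2 and 1 in control libraries, again with no overlap. KO library 2 was the lowest of its group, at 3.70 CPM against 7.98 and 7.23 CPM in KO libraries 1 and 3. The mean was 6.30 ± 2.29 CPM in KO and 0.201 ± 0.209 CPM in control cells (SD, n = 3 each). The log2 fold change was 4.81 (SE 0.63, edgeR adjusted p = 3.710e-04). With 3 control counts in all, this value moved to 5.68 without control library 2 and to 4.28 without control library 1, and both stayed past the threshold (adjusted p = 0.001454 and 0.002155). Per kb of exon Tdrd9 was at 1.16 CPM in KO cells, above 16.6% of tested genes, so its level stayed below that of Tcfl5.

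**Figure D2:**
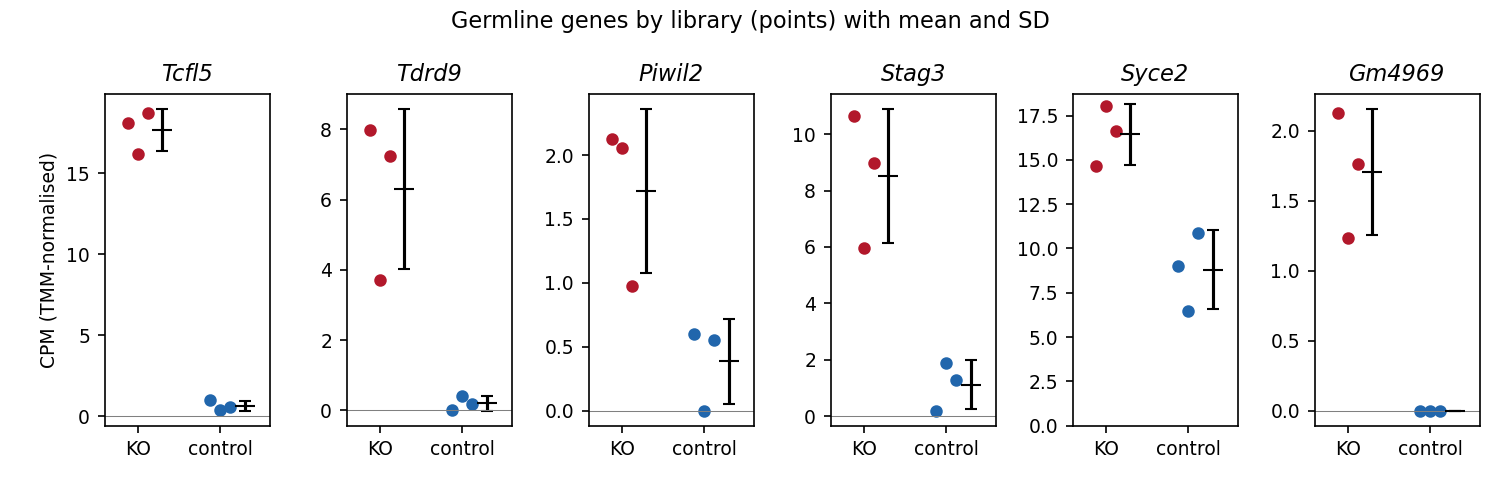
TMM-normalised CPM by library (points, KO left and control right, with mean and SD beside them) for Tcfl5, Tdrd9 and Piwil2 and for 3 genes of the meiosis list. No KO point falls to the level of a control point in any panel, and Piwil2 did not pass the test.

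Both increases were about as large without KO library 1. Of 5003 protein-coding genes at 0 in the other 5 libraries, 47.4% had a count in KO library 1, the highest being 20, against 30 for Tdrd9 and 68 for Tcfl5 there. Without KO library 1 the log2 fold changes were 4.68 for Tcfl5 (edgeR adjusted p = 2.998e-05) and 4.63 for Tdrd9 (adjusted p = 0.006921).

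Both genes have mostly unique transcript sequence. Of the 50-base words in Tdrd9 transcripts, 0% occur in transcripts of another gene. For Tcfl5 the share is 5.8%, most of it with Col9a3, a collagen gene that overlaps its 3′ end on the opposite strand. Col9a3 had 2, 0 and 1 counts in KO libraries and 0, 1 and 0 in control libraries.

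Neighbouring genes did not pass the test. Of the 11 tested protein-coding genes within 500 kb of Tcfl5, 0 were called in either direction (edgeR). Of 11 within 500 kb of Tdrd9, all on its upstream side, 0 were called. Over all tested genes 2.83% were called, so few calls would be expected among 11 genes. The largest log2 fold changes near Tdrd9 were 1.10 for Ckb (SE 0.42, edgeR adjusted p = 0.223) and 0.81 for Ppp1r13b (SE 0.30, adjusted p = 0.184). The others there lay between -0.35 and 0.28. Dido1, the nearest tested gene upstream of Tcfl5, had a log2 fold change of -0.09 (SE 0.15, edgeR adjusted p = 0.803), and Ogfr on its other side one of 0.19 (SE 0.18). Atp5mpl, whose start lies 4.58 kb from that of Tdrd9, had a log2 fold change of 0.14 (SE 0.20, edgeR adjusted p = 0.757). The nearest tested gene on the other side, Inf2, lies 519930 bases away, outside that window. It was at 25.2 ± 0.558 CPM in KO and 21.4 ± 2.05 CPM in control cells (SD, n = 3 each, edgeR adjusted p = 0.425).

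**Figure D3:**
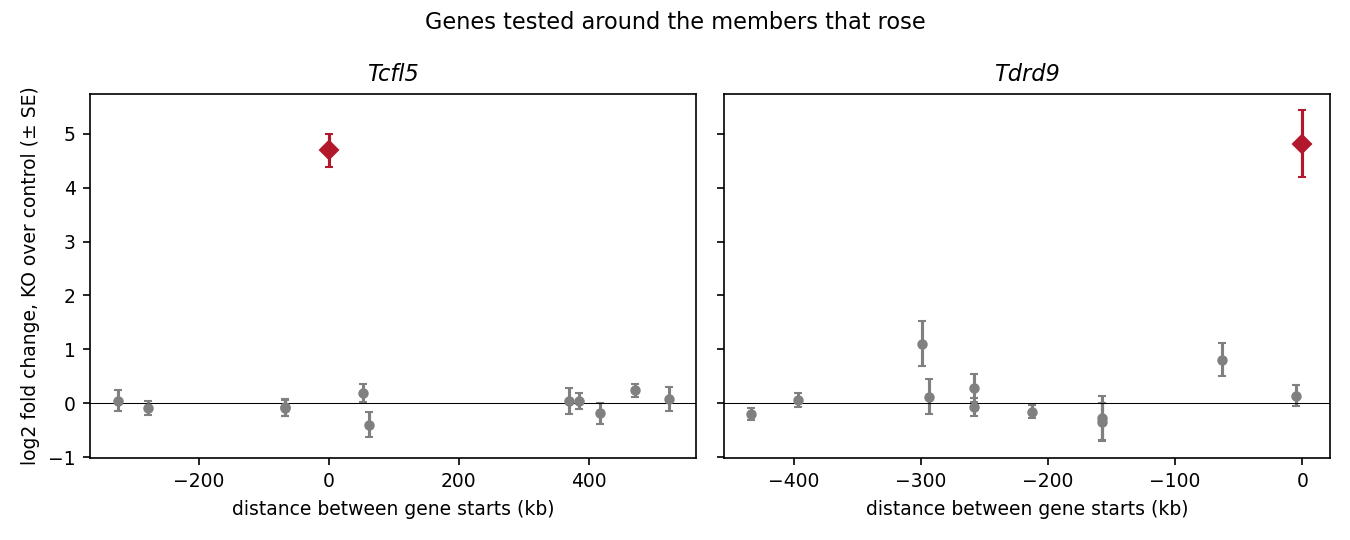
Log2 fold change, KO over control, with SE (vertical axis) for tested protein-coding genes around Tcfl5 and Tdrd9 (diamonds), against the distance between gene starts in kb in the direction of the member's transcription. The diamonds stand at 4.69 and 4.81 and the neighbours between -0.40 and 1.10.

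Promoter windows of the 2 genes that rose are shown because promoters are where PRC1.6 binds and where its sequence motifs can be read. Both are RefSeq windows (GRCm38.p6) from 250 bases before to 50 bases after the transcription start, printed 5′ to 3′ on the gene's strand, with motif matches in capitals: GGCGGGA, the E2F6 motif, and CACGTG, the E-box of MGA and MAX, each searched on both strands. Tcfl5 is chr2:180642642-180642941, minus strand, and Tdrd9 is chr12:111971309-111971608, plus strand.
Tcfl5: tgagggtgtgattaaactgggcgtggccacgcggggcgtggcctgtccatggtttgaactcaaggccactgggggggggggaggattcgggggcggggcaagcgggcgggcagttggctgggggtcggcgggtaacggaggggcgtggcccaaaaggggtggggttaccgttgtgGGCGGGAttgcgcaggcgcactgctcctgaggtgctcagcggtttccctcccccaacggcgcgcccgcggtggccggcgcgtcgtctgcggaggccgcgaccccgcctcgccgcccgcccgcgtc
Tdrd9: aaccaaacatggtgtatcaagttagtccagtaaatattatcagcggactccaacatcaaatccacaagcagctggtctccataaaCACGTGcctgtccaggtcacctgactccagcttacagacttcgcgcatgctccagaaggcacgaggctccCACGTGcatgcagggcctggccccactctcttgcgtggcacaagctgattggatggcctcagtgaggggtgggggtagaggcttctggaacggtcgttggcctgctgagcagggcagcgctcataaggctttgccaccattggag
The Tcfl5 window holds 1 E2F6 motif, 75 bases before the start, no E-box and 35 CpG dinucleotides. Tdrd9 differs: its window holds 2 E-boxes, 165 and 95 bases before the start, no E2F6 motif and 10 CpG dinucleotides.

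The motifs were also found in members that did not pass the test. RefSeq windows were matched for 27 of the 32 members, and Piwil2, Rnf17, Spo11, Tdrd6 and Tex15 were not matched. An E-box was found in the windows of 13 of the 27 genes and an E2F6 motif in 7. Counted over windows, 51.6% of 31 member windows held an E-box and 25.8% an E2F6 motif, against 7.2% and 11.4% of all 32544 RefSeq windows of the same 300 bases. Member windows were also richer in CpG, with a median of 7.0 per 100 bases against 2.33 over all windows. Among windows with at least 3 CpG per 100 bases the shares with an E-box were 53.3% of 30 member windows and 10.8% of all 15000. The shares with an E2F6 motif were close to each other there, at 26.7% of member windows and 22.6% of all. Genes listed at 0 counts in all 6 libraries carried the motifs too: Hormad1 has both, and Sycp3, Piwil1 and Mov10l1 have an E-box. A match is a string of letters and not a measured binding site.

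Apart from Tdrd9, the 12 other piRNA proteins stayed low. Piwil2, a PIWI protein that binds piRNAs in fetal and adult male germ cells, had 8, 10 and 5 counts in KO libraries and 3, 0 and 3 in control libraries. Its groups did not overlap, and its level was 1.72 ± 0.644 CPM in KO and 0.385 ± 0.334 CPM in control cells (SD, n = 3 each). It was not called in the fit to every gene with a count (log2 fold change 2.01, SE 0.87, edgeR adjusted p = 0.399), nor by DESeq2 (adjusted p = 0.740). The ratio of its summed counts, KO over control, was 4.24 (exact 95% interval 1.68 to 12.7, counting error only), and 3.80 (1.40 to 12) without KO library 1.

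Tdrd1, a tudor protein that binds PIWI proteins, had 2, 2 and 2 counts in KO libraries against 0, 1 and 0 in control libraries. With 7 counts in all, its ratio of 6.63 had an interval of 0.805 to 305. Together with Tcfl5, Tdrd9 and Piwil2 it made 4 of the 25 members with a count (16%) whose KO libraries all exceeded the control libraries. Of the 34908 genes with a count 6.48% did so, but these include 7369 with counts in KO library 1 alone, which cannot. Of the 11224 genes that passed the filter 12.8% did so. The same 4 members remained without KO library 1, where 8.57% of the genes with a count did so. No member had every KO library below every control library, and the share of all genes in that order was not counted. Because the members were chosen with earlier results of these data known, these shares are a description and not a test.

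Several members had most of their KO counts in KO library 1. Tdrd6, a component of germ cell RNA granules, had 8, 0 and 1 counts in KO libraries and 2, 1 and 1 in control libraries. Its ratio was 2.49 with all libraries and 0.380 without KO library 1. Tdrd5, a tudor protein needed for spermatid development, had 4, 0 and 3 counts in KO and 0, 1 and 0 in control libraries, and Rnf17, another tudor protein, had 3, 0 and 1 counts in KO and 0, 0 and 1 in control libraries. Tex15, which acts in meiotic recombination and in piRNA-directed DNA methylation, had 13, 5 and 3 counts in KO and 5, 3 and 8 in control libraries. Its ratio was 1.45 (0.721 to 2.97), and 0.761 (0.282 to 1.88) without KO library 1.

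Other factors of the pathway had few counts or none. Piwil1, the PIWI protein of meiotic and later male germ cells, and Mov10l1, the helicase needed to make piRNAs, had 0 counts in all 6 libraries. At 3 counts over a group, a count of 0 allows up to 0.218 CPM in KO and 0.197 CPM in control cells, so lower levels were not detectable at this depth. Ddx4, the VASA helicase that marks germ cells, had 1, 0 and 0 counts in KO and 0, 2 and 0 in control libraries. Mael, a piRNA factor, had 0, 0 and 3 counts in KO libraries and 0 in each control library. Asz1, which acts where piRNAs are made, and Stk31, a tudor domain kinase, had 1 count each, in KO libraries 1 and 2.

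Meiotic chromosome proteins gave a sum of 3, 4 and 2 counts over 7 genes in KO libraries, against 2, 3 and 3 in control libraries. Sycp3 and Hormad1, proteins of the chromosome axis, and Spo11, which cuts DNA to start recombination, had 0 counts in all 6 libraries. Sycp1, the filament of the synaptonemal complex, had 2, 0 and 0 counts in KO and 0 in each control library. Smc1b, a meiotic cohesin subunit, had 1, 0 and 2 counts in KO and 2, 3 and 0 in control libraries. Dmc1, the meiotic recombinase, had 0, 3 and 0 counts in KO and 0, 0 and 2 in control libraries. Sycp2 had 1 count in each group. A difference between the groups was not detectable at these counts.

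Other germ cell regulators stayed below the filter. Brdt, a bromodomain protein of spermatogenesis, had 8, 6 and 6 counts in KO libraries and 4, 6 and 11 in control libraries, with overlapping groups and a ratio of 1.05 (0.542 to 2.04). It was 1 of 3 members with a count in all 6 libraries, with Tcfl5 and Tex15. Dazl, an RNA-binding protein needed for germ cell development, had 2, 1 and 2 counts in KO and 0, 2 and 0 in control libraries. Stra8, a gatekeeper of meiotic entry, had 2, 0 and 0 counts in KO and 0 in each control library. Meioc, which sustains meiotic prophase, had 0, 3 and 0 counts in KO and 1, 0 and 0 in control libraries, and Ddx25, an RNA helicase of spermatids, had 3, 0 and 0 in KO and 1, 0 and 1 in control libraries. Zfp42, a marker of pluripotent cells, had 3 counts, all in KO library 1.

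The remaining testis genes were close to silent. Tex101 and Dpep3, surface proteins of testis germ cells, had 0 counts in all 6 libraries. Slc25a31, a mitochondrial ADP/ATP carrier of sperm, had 0, 0 and 1 counts in KO and 0, 1 and 0 in control libraries. Tuba3a had 2, 0 and 0 counts in KO libraries and 0 in control libraries, and Tuba3b had 0 in KO and 1, 1 and 0 in control libraries. These alpha-tubulin genes share 35.3% and 29.5% of their words with other genes, mostly each other, and how reads were divided between the pair is uncertain. Likewise 43% of the words of Sycp3 and 22.9% of those of Hormad1 occur in other genes.

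**Figure D4:**
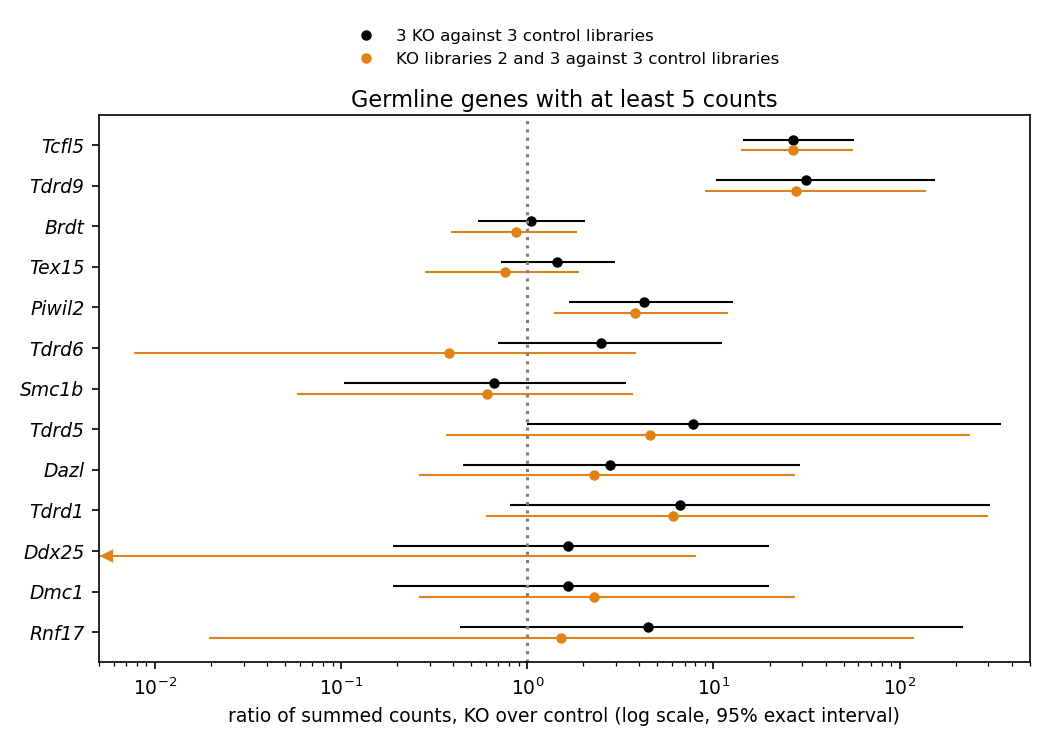
Ratio of summed counts, KO over control (log axis), with exact 95% intervals for the 13 genes with at least 5 counts; black uses all 6 libraries and orange leaves out KO library 1, and an arrow marks a ratio of 0. The intervals of Tcfl5, Tdrd9 and Piwil2 lie above 1 in both, and the ratios of Brdt, Tex15, Tdrd6 and Ddx25 lie above 1 with KO library 1 and below 1 without it.

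The number of members detected moved with KO library 1. In KO libraries 18, 11 and 13 members had a count, against 9, 12 and 10 in control libraries. Of the 12 members at 0 in the other 5 libraries, 5 had a count in KO library 1 (Zfp42, Sycp1, Stra8, Tuba3a and Asz1), next to 47.4% of protein-coding genes in that position. Summed over the 30 members other than Tcfl5 and Tdrd9, counts were 63, 32 and 29 in KO and 19, 21 and 28 in control libraries. The ratio of these sums was 2.02 (1.49 to 2.75), and 1.37 (0.95 to 1.96) without KO library 1. Of the 7 members with counts in the KO group and 0 in the control group, 2 had a count outside KO library 1, Mael and Stk31.

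**Figure D5:**
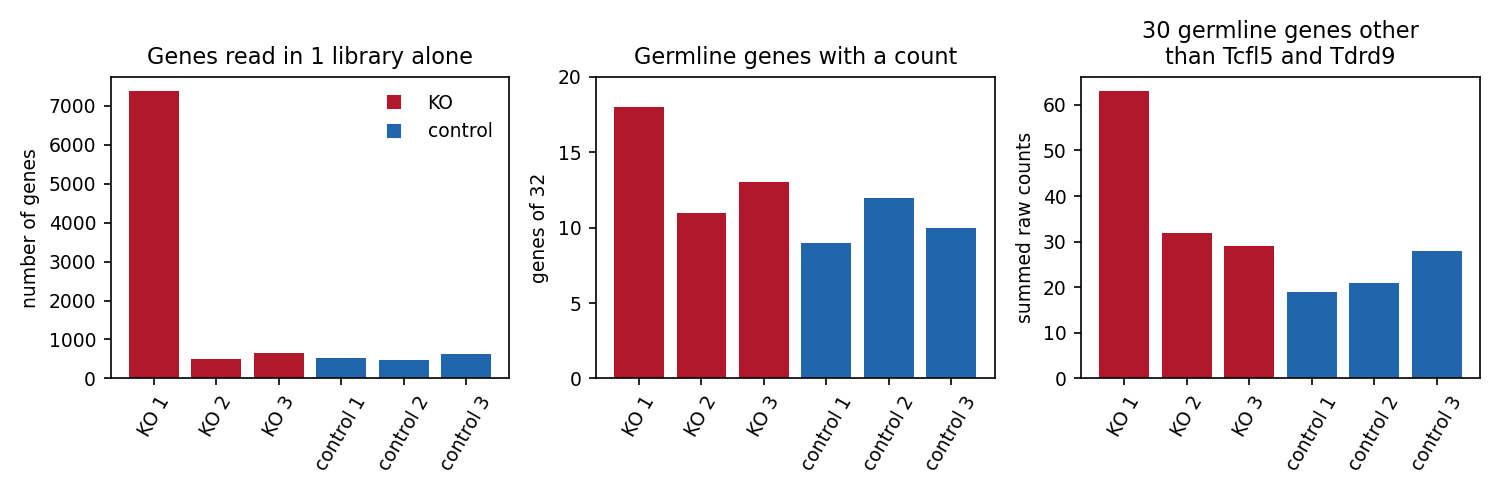
For each KO (red) and control (blue) library: genes with counts there and in no other library (left), germline genes of 32 with a count (middle), and summed raw counts of the 30 germline genes other than Tcfl5 and Tdrd9 (right). KO library 1 is highest in all 3 panels, with 7369 genes, 18 members and 63 counts. KO libraries 2 and 3 lie nearer the control libraries. In the right panel they are above each of them, with 32 and 29 counts against 19, 21 and 28.

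Other germline genes, on lists drawn up by function with earlier results of these data known, mostly did not pass the filter. Of 40 further meiosis genes listed, 36 were matched by symbol in the count table, and the rest were left out. Of these 36, 9 passed the filter, of which 2 were higher and none lower in KO cells (edgeR, while DESeq2 called 1 and limma-voom 2). At an unadjusted p under 0.05, 2 were higher and 2 lower. The 2 lower ones were Trip13, an ATPase that remodels HORMA proteins, and Ythdc2, a helicase needed for meiotic entry. Their log2 fold changes were -0.45 and -0.39 (edgeR adjusted p = 0.0886 and 0.220). Both had every KO library below every control library, and the share of all tested genes in that order was not counted. The median log2 fold change of the 9 tested meiosis genes was 0.04, beside 0.01 over all genes that passed the filter. Stag3, a meiotic cohesin subunit, had 40, 29 and 46 counts in KO libraries and 1, 9 and 7 in control libraries. It rose to 8.53 ± 2.38 CPM in KO cells, against 1.12 ± 0.852 CPM in control cells (SD, n = 3 each; log2 fold change 2.89, SE 0.47, edgeR adjusted p = 0.003594). This call held without KO library 1 (adjusted p = 0.0435). Syce2, of the central element of the synaptonemal complex, rose to 16.4 ± 1.73 CPM in KO cells, against 8.79 ± 2.22 CPM in control cells (SD, n = 3 each; log2 fold change 0.90, SE 0.21, edgeR adjusted p = 0.03135). Syce2 was not called by DESeq2 (adjusted p = 0.338), nor by edgeR with the replicate number as a block (adjusted p = 0.0507) or when any 1 library other than control library 3 was left out (adjusted p up to 0.149).

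Below the filter, 2 list genes, chosen after their values were seen, had counts in every KO library and 0 in every control library. Of all 34908 genes with a count, 0.639% had this pattern. Gm4969, entered on the meiosis list, had 8, 6 and 9 counts in KO libraries, 8.48 times the floor of 3 counts over the control group. The exact 95% lower limit of its ratio to the 0 control counts was 6.36. It was called in the fit to every gene with a count (edgeR adjusted p = 0.0046), but not by DESeq2 (adjusted p = 0.0742) nor without KO library 3 (edgeR adjusted p = 0.0522). Tex19.1, a testis gene also active in placenta and linked to transposon control, had 7, 4 and 4 counts in KO libraries, 5.53 times that floor and 4.06 times without KO library 1, with a lower limit of 3.97 for the ratio. It was not called (edgeR adjusted p = 0.0836).

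Of 24 other piRNA pathway genes, 3 passed the filter and none was called by edgeR, DESeq2 or limma-voom (1 higher at an unadjusted p under 0.05, Tdrd7). Mybl1, the transcription factor that switches on piRNA genes in meiosis, was at 37.1 ± 4.54 CPM in KO and 45.1 ± 5.93 CPM in control cells, and Tdrd7, a tudor protein, at 11 ± 1.53 CPM in KO and 7.68 ± 1.19 CPM in control cells (SD, n = 3 each). Tdrd7 and Tdrkh, also tested, had every KO library above every control library, as did 12.8% of all genes that passed the filter. The groups of Mybl1 overlapped. Among 26 germ cell fate and pluripotency genes, 3 passed the filter and none was called by these tools (1 higher at an unadjusted p under 0.05). Taf4b, a germ cell form of a TFIID subunit, was at 27.0 ± 4.97 CPM in KO and 28.3 ± 1.87 CPM in control cells, and Gfra1, a GDNF receptor of spermatogonial stem cells, at 7.87 ± 2.67 CPM in KO and 6.90 ± 0.880 CPM in control cells (SD, n = 3 each).

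Late sperm genes were mostly close to 0 counts. Of 30 spermatid and sperm genes, 24 had under 5 counts over the 6 libraries. Odf2 and Crem, which body cells also express, passed the filter, and neither was called (0 at an unadjusted p under 0.05; 0 with DESeq2 and limma-voom). Odf2 was at 31.2 ± 2.73 CPM in KO and 30.6 ± 6.21 CPM in control cells, and Crem at 8.89 ± 0.228 CPM in KO and 7.41 ± 0.956 CPM in control cells (SD, n = 3 each). The protamine gene Prm1 and the transition protein gene Tnp2 had 0 counts in all 6 libraries, and Prm2 and Tnp1 had 1 count each, in KO library 1. Of 17 genes of testis somatic cells 3 passed, Sox9 and Clu among them, and none was called by the same tools (0 at an unadjusted p under 0.05 in edgeR, while Clu had an unadjusted p of 0.003037 in DESeq2). Sox9 was at 122 ± 14.1 CPM in KO and 119 ± 32.3 CPM in control cells, and Clu at 2.91 ± 1.30 CPM in KO and 11.4 ± 11.8 CPM in control cells (SD, n = 3 each), highest in control library 3.

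Genes of PRC1.6 itself were expressed in both groups. All 14 passed the filter and none was called by edgeR, DESeq2 or limma-voom (at an unadjusted p under 0.05, 1 was higher and 4 lower), with a median log2 fold change of -0.20. Cbx3, a heterochromatin protein, was at 203 ± 40.8 CPM in KO and 265 ± 14.7 CPM in control cells (SD, n = 3 each, edgeR adjusted p = 0.182). Tfdp1, the partner of E2F factors, was at 117 ± 3.25 CPM in KO and 149 ± 3.23 CPM in control cells (SD, n = 3 each, edgeR adjusted p = 0.102).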

How the data were processed

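The authors deposited raw counts per Ensembl gene for 6 libraries, 3 per group; STAR, Salmon, DESeq2 1.34.0 and the GRCm38 genome are named in the submitters' processing notes, and which of these made the counts, with what strand setting and annotation, is not given in the sources used here. Gene symbols were found for 55141 of 55487 genes in a table of Ensembl names, and coordinates, gene types and exon lengths came from GENCODE M21 (GRCm38).

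Counts were tested with edgeR 4.0.16 in R 4.3.3 (quasi-likelihood fit, robust dispersion, TMM, default low-count filter, two-sided, Benjamini-Hochberg over 11224 genes, threshold 0.05), and again with every gene that had at least 1 count (34908). Standard errors are the log2 fold change divided by the root of F. Ratios of summed counts use TMM effective sizes and exact (Clopper-Pearson) 95% intervals, with a floor of 3 counts over a group at 0. Reads carry no molecular identifiers in the labels, so intervals and floors cover counting error only. The fits were tested on simulated data.

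Genes named are all 32 members, up to 4 called genes of each germline and PRC1.6 list (or the 2 highest where none was called), the nearest tested neighbours of called members and Setdb1. Cell type markers, other uncalled list genes, overlapping genes and other neighbours were named after their values were seen. Members and lists were chosen with earlier results of these data known, so their counts are given as descriptions. The labels call the libraries biological replicates. Alternatives were DESeq2 1.42.0, limma-voom (limma 3.58.1), other scaling, other filters, a replicate block and each library left out; leaving out KO library 1 and control library 3 together was added after seeing the data. Promoter windows came from RefSeq. Python 3.11.15, pandas 2.3.3, SciPy 1.17.1 and matplotlib 3.10.9 were used.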

Additional observations from a re-analysis of the deposited data

How the results depend on the processing

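The 2 calls among the germline genes, Tcfl5 and Tdrd9, were made under each of the 16 alternatives to the filtered fit and each of the 11 alternatives to the fit to every gene with a count. Log2 fold changes ran from 4.47 to 5.09 for Tcfl5 (adjusted p up to 3.841e-05) and from 4.28 to 5.68 for Tdrd9 (adjusted p up to 0.006921), KO over control. The count of changed genes was 318, 511 with no low-count filter, 184 with DESeq2, and 152 to 345 with 1 library left out (152 without KO library 1, 180 without KO library 2, 157 without control library 2). With the replicate number as a block 247 genes changed, Tcfl5 and Tdrd9 among them (log2 fold changes 4.71 and 4.79). Deviations from the group means correlated at 0.14, -0.09 and -0.07 between same-numbered libraries. No clear shared deviation was seen, and such correlations cannot show whether the animals were paired.

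Detection depended on the rule. With a count asked for in at least 2 libraries of a group, 11 members were detected in KO and 9 in control cells, where 24 and 18 had at least 1 count. With at least 3 counts over the group 16 were detected in KO and 7 in control cells. That KO number rests in part on KO library 1: Tdrd6, Smc1b, Ddx25, Rnf17 and Zfp42 have under 3 KO counts without it. Under the rule of at least 1 count, 1 library left out gave 17 to 22 in KO and 13 to 17 in control cells. Summed germline CPM averaged 33.7 in KO and 5.31 in control libraries. Tcfl5 and Tdrd9 made up most of the KO sum, with 26.1, 19.9 and 26.0 CPM in KO libraries 1, 2 and 3. The other 30 members summed to 16.8, 6.6 and 5.7 CPM in KO and 3.8, 4.4 and 5.2 CPM in control libraries. Over all members, 1 library left out gave averages of 29.4 to 37.2 in KO and 5.06 to 5.48 in control libraries. Without mitochondrial and structural RNA genes, which shrinks the library size by construction, they were 65.5 in KO and 10.3 in control libraries. Without filter, the median log2 fold change over all genes was 0.42, so fold changes of low genes are to be read against that shift.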
